A study of Mus musculus with 4 samples.

Results

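Cells take up and exchange amino acids through several unrelated families of membrane carriers, and the levels of the genes of these families were followed here in cultured C57BL/6 mouse cells. The genes were chosen by symbol alone, as all those named Slc1a, Slc3a, Slc6a, Slc7a, Slc36a, Slc38a or Slc43a followed by a number. There were 60 of them among the 19938 genes that the array measured with a probe set of a single symbol, in 7 families. A gene with several probe sets took the one with the highest mean level, which concerned Slc38a1 and Slc38a9. Of the members, 29 (48.3%) lay above the detection floor in at least 1 array, against 58.6% of all genes.

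The series held 1 array for each of 4 groups, all of C57BL/6 origin. Mesenchymal stem cells (MSC) were the plastic-adherent cells of marrow flushed from the thigh and shin bones, grown in Coon's modified F12 medium with 1 ng/ml of the mitogen bFGF (basic fibroblast growth factor) or in the same medium without it. Osteoblasts came from digested skull bones of newborn mice and were grown in DMEM. Those 3 cultures shared 10% fetal calf serum and 2 mM L-glutamine, and were passaged at about 85% confluence. Neither the medium of the embryonic stem (ES) cells nor the age of the marrow donors is given in the sources used here. Amino acid composition differs between culture media, and in MSC minus osteoblasts cell type, medium and age cannot be told apart. No bFGF is recorded for the osteoblasts, so in MSC with bFGF minus osteoblasts bFGF cannot be told apart from these either. In comparisons with ES cells the medium is unknown, so cell type and medium cannot be told apart there either.

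Levels are log2 values from Affymetrix arrays, so a difference of 1 is 2-fold. The floor is the median level of an array's single-symbol probe sets, 6.32 for MSC with bFGF, 6.29 for MSC without, 6.46 for osteoblasts and 6.46 for ES cells. A gene was counted in a comparison when its level in the higher of the arrays passed that array's floor. With a single array per group no test between groups exists, there is no replicate check and no SD between cultures, and every difference below describes these arrays. Where the lower level is under the floor, the size of a difference depends on background. In such bulk samples fewer cells of a type and less RNA per cell cannot be told apart.

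The arrays only partly carried the markers of their labels. Of 10 ES cell markers 1, 0 and 0 lay above the floor in MSC with bFGF, MSC without bFGF and osteoblasts, against 7 in ES cells. Of 8 osteoblast markers 2 did so in MSC with bFGF, 3 in MSC without, 3 in osteoblasts and 3 in ES cells, and in osteoblasts Alpl, Sp7, Ibsp, Dmp1 and Phex were under it. Col1a1, Col1a2 and Dlx5 passed it in osteoblasts, at 12.60, 12.98 and 7.49, and each was higher there than in the other arrays. Of 12 stromal surface markers, the list nearest to the MSC label, 9 passed in MSC with bFGF and 6 in MSC without, against 11 in osteoblasts and 10 in ES cells. Neither MSC array had Thy1, Lepr or Cxcl12 above the floor. The list of 18 macrophage markers had 15 above the floor in MSC with bFGF, 9 in MSC without, 16 in osteoblasts and 12 in ES cells, with median levels of 9.51, 6.35, 10.78 and 7.34. The highest levels in ES cells were 11.29 in the ES cell list, 11.10 in the stromal list and 11.14 in the macrophage list. Endothelial, lymphocyte and neutrophil markers were under the floor in all arrays except Kdr in ES cells.

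The families differ in how they move their substrates. SLC1 carriers take up glutamate or exchange small neutral amino acids, and SLC6 carriers use the sodium and chloride gradients to bring in glycine, taurine, creatine or neurotransmitters. SLC7 holds the cationic amino acid transporters and the light chains, which reach the cell surface only when joined to a heavy chain of the SLC3 family. SLC38 carriers bring in glutamine and other neutral amino acids with sodium, SLC36 carriers couple transport to protons and often act on lysosomes, and SLC43 carriers let large neutral amino acids through by facilitated diffusion. When amino acids run short, the kinase GCN2 and the transcription factor ATF4 raise many of these genes through a sequence called the C/EBP-ATF response element.

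Promoter sequences are shown for the members 2-fold or more higher in both MSC arrays than in ES cells, where a window holds a searched motif. RefSeq windows (GRCm38.p6) from 250 bases before to 50 after an annotated start were found for 43 of the 60 members, some of them with several starts, 64 windows in all. Each was searched on both strands for the response element core TGATGNAAN and for TGACNNNGC, the core of the antioxidant response element that the factor NRF2 binds. The first was in 5 of the 64 windows, of 4 members, against 3.95% of all 32851 windows, and the second was in 11, of 9 members, against 12.4%. Windows of the same gene can overlap, and those of Slc7a7 and those of Slc7a6 share a match that is counted in each. Capitals mark the matches in the sequences, which read 5′ to 3′ on the gene's strand. A match is a run of letters and no evidence of binding.
Slc7a11 (chr3:50443564-50443863, minus strand): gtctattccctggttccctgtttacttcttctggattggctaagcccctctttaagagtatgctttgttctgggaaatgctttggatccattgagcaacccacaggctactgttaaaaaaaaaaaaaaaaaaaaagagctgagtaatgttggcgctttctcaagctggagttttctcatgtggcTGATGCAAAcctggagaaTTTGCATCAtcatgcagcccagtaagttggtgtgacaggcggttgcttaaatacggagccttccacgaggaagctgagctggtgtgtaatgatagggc
Slc6a9, first (chr4:117849100-117849399, plus strand): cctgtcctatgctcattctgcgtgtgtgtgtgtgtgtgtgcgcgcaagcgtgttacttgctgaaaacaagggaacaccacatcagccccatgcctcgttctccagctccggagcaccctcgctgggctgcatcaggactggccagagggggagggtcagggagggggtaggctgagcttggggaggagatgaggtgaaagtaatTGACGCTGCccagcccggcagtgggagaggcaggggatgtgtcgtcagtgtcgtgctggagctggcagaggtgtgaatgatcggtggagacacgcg
Slc6a9, second (chr4:117855297-117855596, plus strand): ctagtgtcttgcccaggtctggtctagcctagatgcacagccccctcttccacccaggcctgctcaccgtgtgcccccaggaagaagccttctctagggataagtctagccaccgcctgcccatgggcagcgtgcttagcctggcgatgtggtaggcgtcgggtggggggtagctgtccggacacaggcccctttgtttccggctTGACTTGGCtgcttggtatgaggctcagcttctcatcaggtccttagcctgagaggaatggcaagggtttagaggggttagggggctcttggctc
Slc1a4 (chr11:20332664-20332963, minus strand): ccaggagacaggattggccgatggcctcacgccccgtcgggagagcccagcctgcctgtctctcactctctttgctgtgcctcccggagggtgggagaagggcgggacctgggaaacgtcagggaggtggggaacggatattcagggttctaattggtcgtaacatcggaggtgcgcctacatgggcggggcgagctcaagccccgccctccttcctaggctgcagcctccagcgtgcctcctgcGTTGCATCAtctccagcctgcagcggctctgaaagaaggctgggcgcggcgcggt
Slc7a1 (chr5:148399855-148400154, minus strand): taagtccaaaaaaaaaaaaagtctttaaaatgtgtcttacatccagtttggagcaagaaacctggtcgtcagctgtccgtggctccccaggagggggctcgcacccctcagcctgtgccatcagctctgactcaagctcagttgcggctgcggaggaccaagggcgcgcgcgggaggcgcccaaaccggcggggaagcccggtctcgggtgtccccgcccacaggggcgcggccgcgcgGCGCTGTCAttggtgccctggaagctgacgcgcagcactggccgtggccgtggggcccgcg
The window of the cystine carrier gene Slc7a11 holds TGATGCAAA in both orientations, beginning 66 and 48 bases before the start. That of the neutral amino acid exchanger Slc1a4 holds TGATGCAAC on the opposite strand, and that of the arginine transporter Slc7a1 holds TGACAGCGC, the antioxidant core, also on the opposite strand. The glycine transporter gene Slc6a9 has several annotated starts, and the windows shown hold TGACGCTGC and TGACTTGGC, beginning 46 and 45 bases before their starts. The response element core was also in windows of Slc7a7 and Slc6a21, and the antioxidant core in windows of Slc36a1, Slc38a2, Slc7a6, Slc43a1, Slc6a11, Slc6a13 and Slc6a16. The genes with a match thus include Slc7a7, whose level was low in both MSC arrays, and several with no level above the floor. No window was found for Slc1a5, and that of the heavy chain gene Slc3a2 held neither motif.

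A group of 4 carriers of cystine, glycine, arginine and small neutral amino acids had higher levels in both MSC arrays than in both controls. In Slc7a11, Slc1a5, Slc6a9 and Slc7a1 the lower MSC level was 2-fold or more above the higher control level. Of all 11678 genes above the floor in some array 2.53% met this condition. The opposite one, both MSC arrays 2-fold or more below both controls, was met by 4 members and by 2.74% of all genes. They were Slc7a7, Slc38a1, Slc43a3 and Slc38a4, the last with a level under the floor in osteoblasts too, so that it is not counted in the comparisons with osteoblasts below. In each of the 4 genes high in MSC the MSC arrays differed from each other by no more than 0.20.

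Slc7a11, the light chain xCT that brings in cystine in exchange for glutamate and so feeds glutathione synthesis, stood at 10.63 in MSC with bFGF, 10.58 in MSC without, 7.97 in osteoblasts and 7.14 in ES cells. The MSC levels were 11.3-fold and 10.9-fold those of ES cells, with and without bFGF, and the osteoblast level was 1.78-fold that of ES cells. Its partner Slc3a2, the heavy chain 4F2hc (CD98), was at 11.97, 12.15, 11.54 and 10.95 in the same order. The heavy chain differed over the arrays by 1.20 and the light chain by 3.50, so that the light chain varied more.

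Slc1a5 encodes ASCT2, an exchanger that many dividing cells use to take up glutamine. MSC had levels of 10.51 with bFGF and 10.70 without it, and osteoblasts and ES cells had 8.10 and 8.09. The controls lay within 0.01 of each other, and MSC were 5.31-fold and 6.05-fold above osteoblasts with and without bFGF. The related exchanger Slc1a4 (ASCT1), which carries alanine, serine and cysteine, was at 9.03, 9.37, 8.64 and 7.52 in MSC with bFGF, MSC without bFGF, osteoblasts and ES cells. It was 2-fold or more above ES cells in all 3 bone-derived cultures, by 1.51, 1.86 and 1.12, but less than 2-fold above osteoblasts in MSC.

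The glycine transporter Slc6a9 (GlyT1) stood at 9.74 and 9.80 in MSC grown with and without bFGF, against 7.98 in osteoblasts and 7.04 in ES cells. Slc7a1 (CAT1), the main arginine and lysine transporter of most dividing cells, had 9.87 and 9.67 against 8.46 and 7.92. The related cationic carrier Slc7a2 (CAT2) hardly varied, at 7.15, 7.05, 7.38 and 7.02 in MSC with bFGF, MSC without, osteoblasts and ES cells. The order for both Slc6a9 and Slc7a1 was MSC, then osteoblasts, then ES cells.

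**Figure D1:**
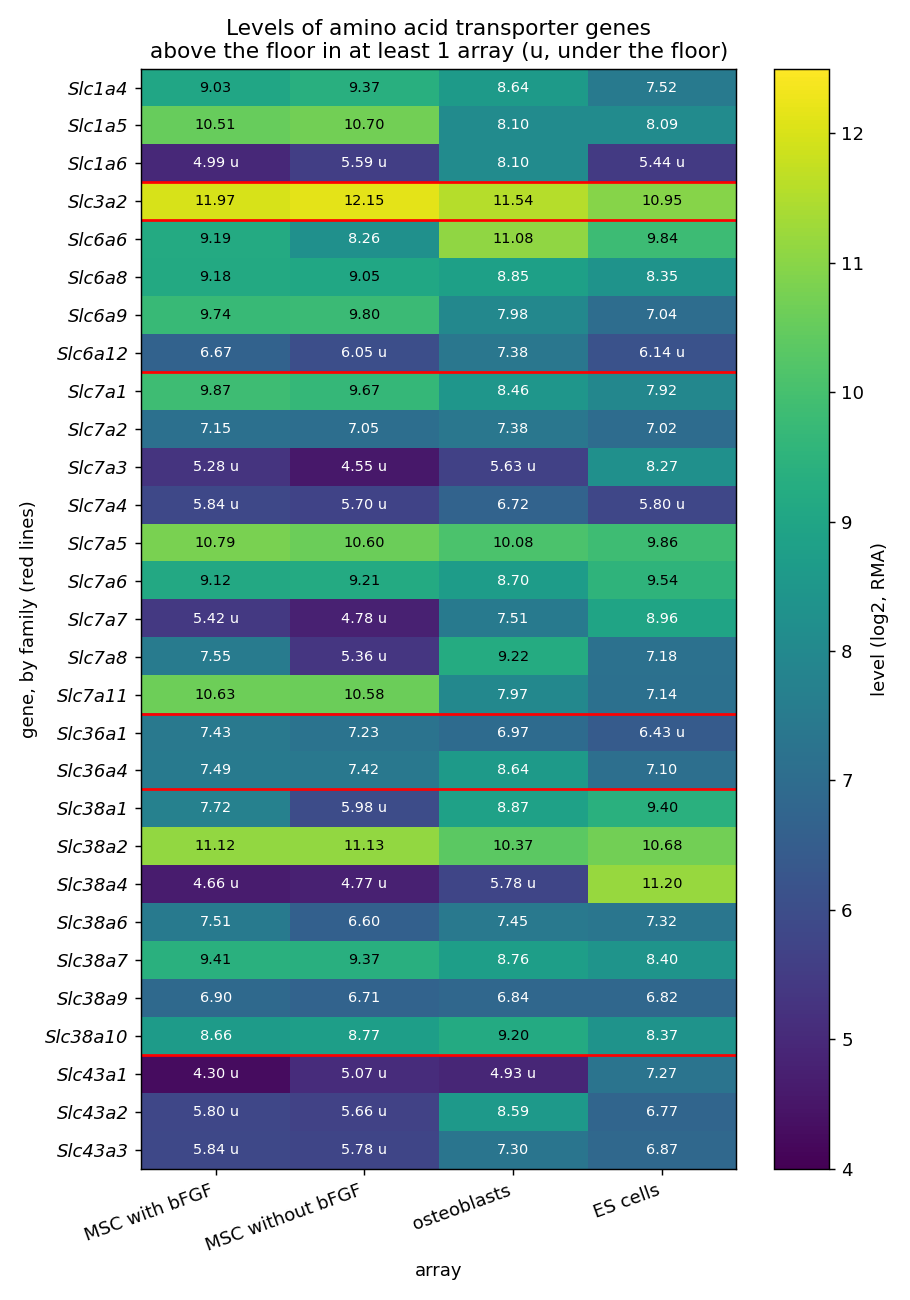
Level (log2, colour and number) of the 29 transporter genes above the floor in at least 1 array, with genes down the page by family and the 4 arrays across; u marks a level under that array's floor. Slc7a11, Slc1a5, Slc6a9 and Slc7a1 are higher in the 2 MSC columns than in the control columns, and Slc38a4 is above the floor in ES cells only.

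Against osteoblasts, more members were 2-fold or more lower in MSC than 2-fold or more higher, as was so over all genes. In MSC with bFGF 4 of 26 members above the floor were 2-fold or more higher, against 7.5% of all genes, and 8 were lower, against 9.71%. Without bFGF 4 of 26 were higher, against 8.17%, and 10 were lower, against 13.3%. The median over these members was 0.06 with bFGF and -0.23 without, beside 0.09 over all genes in each. At any size of difference 14 of the 26 were higher with bFGF and 12 of the 26 without. The members counted as 2-fold or more higher were the 4 described above in each MSC array. Both comparisons share the osteoblast array.

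Slc43a2 (LAT4), a carrier of branched-chain amino acids and phenylalanine, stood at 5.80 and 5.66 in MSC grown with and without bFGF, both under the floor, against 8.59 in osteoblasts. Slc7a8 (LAT2), a light chain for large and small neutral amino acids, was at 7.55 and 5.36 against 9.22, a difference of -1.67 with bFGF and -3.87 without. Slc7a7 (y+LAT1), a light chain that exports cationic amino acids and is known from macrophages and from the gut and kidney epithelium, was at 5.42 and 4.78 against 7.51. Its MSC levels were both under the floor. By contrast Slc7a5 (LAT1), the light chain for leucine and other large neutral amino acids, was at 10.79 and 10.60 against 10.08 in osteoblasts and 9.86 in ES cells.

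The taurine transporter Slc6a6, which protects cells against osmotic swings, had levels of 9.19 and 8.26 in MSC grown with and without bFGF, compared with 11.08 in osteoblasts and 9.84 in ES cells. MSC differed from osteoblasts by -1.89 and -2.82 with and without bFGF. The betaine and GABA transporter Slc6a12, also known for osmotic control, was at 6.67, 6.05, 7.38 and 6.14 in MSC with bFGF, MSC without, osteoblasts and ES cells. Both osmolyte carriers were thus highest in osteoblasts. Slc6a8, which brings in creatine, varied by 0.82 over the arrays and was at 9.18, 9.05, 8.85 and 8.35.

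Other members high in osteoblasts were of several kinds. Slc1a6 (EAAT4), a glutamate transporter best known from cerebellar Purkinje cells, was under the floor in MSC, at 4.99 with bFGF and 5.59 without it, and in ES cells, at 5.44, but reached 8.10 in osteoblasts. Slc36a4 (PAT4), a high-affinity proline and tryptophan carrier, was at 7.49, 7.42, 8.64 and 7.10 in MSC with bFGF, MSC without, osteoblasts and ES cells. Slc43a3, which despite its family carries purine bases and not amino acids, had 5.84 and 5.78 in MSC grown with and without bFGF against 7.30 and 6.87 in osteoblasts and ES cells. Slc7a4, a relative of the cationic carriers with no settled substrate, was at 5.84, 5.70, 6.72 and 5.80 and passed the floor in osteoblasts alone. In the same comparisons the macrophage list lay at a median difference of -1.14 for MSC with bFGF minus osteoblasts and -3.88 for MSC without. Those medians are over all 18 genes. With bFGF 10 of its 17 genes above the floor were 2-fold or more lower and 1 higher, beside 9.71% and 7.5% of all genes. Without bFGF 16 of 16 were lower and 0 higher, beside 13.3% and 8.17%. The part of the macrophage list in the members' differences was not tested.

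**Figure D2:**
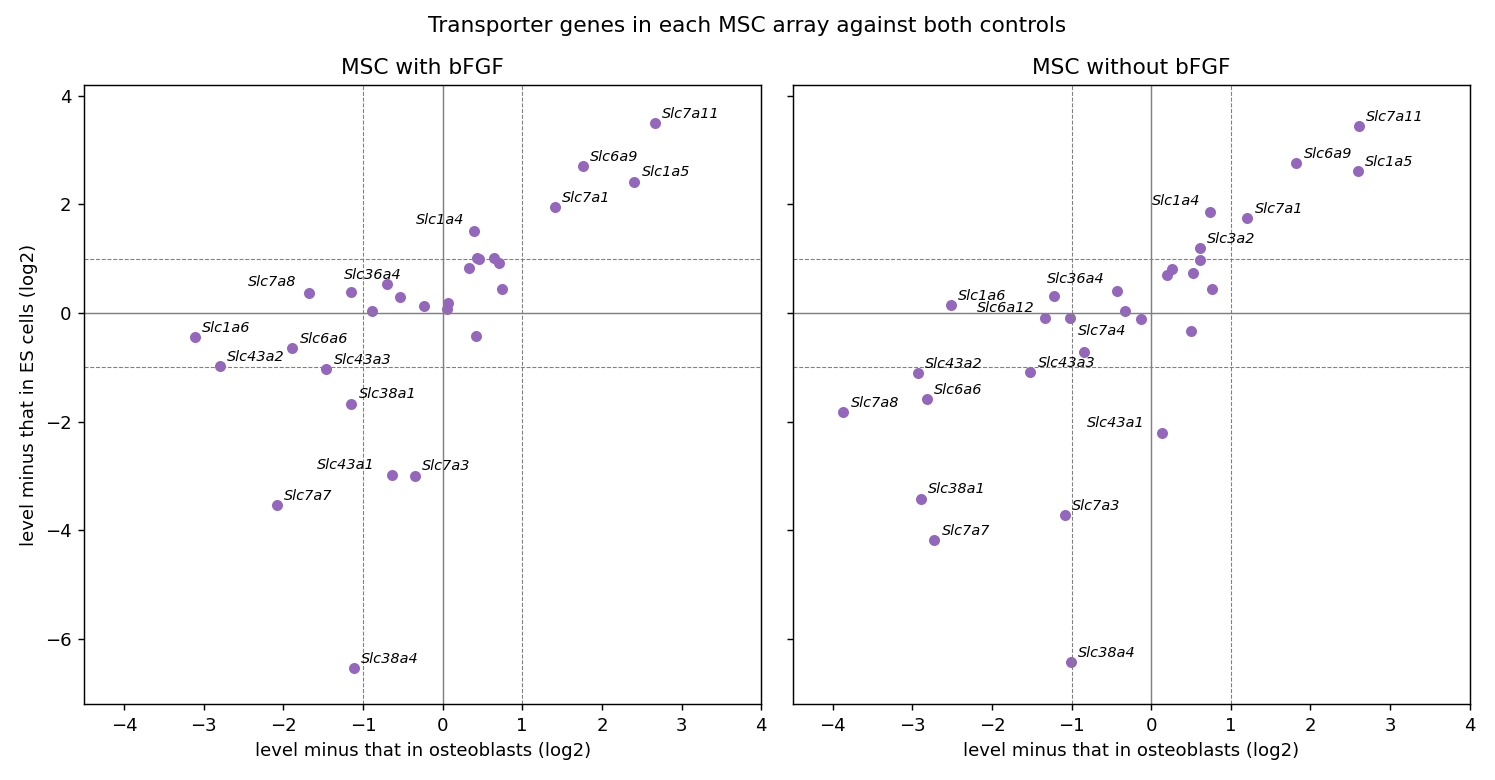
Difference from osteoblasts (x axis, log2) and from ES cells (y axis, log2) of the 29 transporter genes above the floor in at least 1 array, for MSC with bFGF (left) and MSC without bFGF (right); dashed lines mark 2-fold, each point is a gene, and genes near or inside the lines are mostly unlabelled. Slc7a11, Slc6a9, Slc1a5 and Slc7a1 lie at the upper right of both panels, and Slc38a4 lies lowest in both, at -6.54 and -6.43.

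Against ES cells, 8 of 27 members were 2-fold or more higher in MSC with bFGF, where 11.3% of all genes were, and 6 were lower, where 10.6% were. Once differences were centred on the median over all genes, 0.12, the split was 5 higher and 7 lower. In MSC without bFGF 6 of 26 were higher, against 10.4% of all genes, and 9 were lower, against 11.8%. Besides Slc7a11, Slc1a5, Slc6a9, Slc7a1 and Slc1a4, the heavy chain gene Slc3a2 was higher, by 1.02 with bFGF and 1.20 without. The lysosomal proton-coupled carrier Slc36a1 (PAT1) differed by 1.00 and 0.81 and the lysosomal glutamine exporter Slc38a7 by 1.01 and 0.97, so that these lie just on either side of the threshold. Slc3a2 with bFGF also lay at it, and was 0.91 with differences centred on the median and 0.87 with a loess curve removed. In the same comparisons the macrophage list lay at a median difference of 2.15 with bFGF and -0.40 without. Those medians are over all 18 genes. With bFGF 12 of its 16 genes above the floor were 2-fold or more higher and 2 lower, beside 11.3% and 10.6% of all genes. Without bFGF 0 of 12 were higher and 4 lower, beside 10.4% and 11.8%. The list's part in the members' differences was not tested.

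Members with higher levels in ES cells were led by Slc38a4 (SNAT4), an imprinted gene of the mouse placenta and liver that carries neutral and cationic amino acids. It stood at 4.66 in MSC with bFGF, 4.77 without and 5.78 in osteoblasts, all under the floor, against 11.20 in ES cells. In the RefSeq annotation of GRCm38.p6 it lies next to Slc38a2, which in turn lies next to Slc38a1, with no protein-coding gene between them. The neighbour Slc38a2 (SNAT2), a glutamine and alanine carrier induced when amino acids run short, was at 11.12, 11.13, 10.37 and 10.68 in MSC with bFGF, MSC without, osteoblasts and ES cells. These adjacent genes of one family had unlike patterns over the arrays.

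The cationic carrier Slc7a3 (CAT3) was at 5.28 and 4.55 in MSC grown with and without bFGF and 5.63 in osteoblasts, and passed the floor in ES cells alone, at 8.27. So did Slc43a1 (LAT3), a carrier of branched-chain amino acids, at 4.30 and 5.07 in MSC and 4.93 in osteoblasts against 7.27 in ES cells. Slc7a7, described above, was 11.6-fold and 18.1-fold lower in MSC grown with and without bFGF than in ES cells, where it stood at 8.96. Both MSC levels were under the floor, so the size of these differences depends on background. Another y+LAT light chain, Slc7a6, which exchanges arginine for neutral amino acids, showed no such gap, at 9.12 and 9.21 in MSC against 8.70 in osteoblasts and 9.54 in ES cells.

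Osteoblasts differed from ES cells in 11 of 29 members. Those 2-fold or more higher in osteoblasts were 7, against 12.3% of all genes, and those lower were 4, against 8.83%. Slc1a6, Slc7a8, Slc43a2, Slc36a4, Slc6a6, Slc6a12 and Slc1a4 were higher, by 2.66 for Slc1a6 and 2.04 for Slc7a8. The lower ones were Slc38a4, Slc7a3, Slc43a1 and Slc7a7, with differences between -5.42 and -1.45. The macrophage list was higher in osteoblasts than in ES cells by a median of 3.35, and its part in the members' differences was not tested.

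Between the MSC arrays 9.52% of the counted members passed 2-fold upward with bFGF, a share that rests on 2 genes. Of 21 members above the floor 2 were 2-fold or more higher in MSC grown with bFGF than in MSC grown without it, against 4.09% of all genes, and 0 were lower, against 0.467%. Both MSC arrays came from single cultures. Of the 29 members above the floor in some array, 19 differed between the MSC arrays by less than 0.3. Those 19 include Slc7a4, Slc38a4, Slc43a2 and Slc43a3, for which neither MSC level passed the floor. How many of all genes lie within 0.3 was not computed, so this count cannot be read as particular to the members. The median over the 21 members was 0.09, beside -0.004 over all genes.

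The members higher with bFGF were a light chain and a glutamine carrier. Slc7a8 stood at 7.55 with bFGF and 5.36 without, a 4.57-fold difference from a level under the floor. Slc38a1 (SNAT1), a sodium-coupled glutamine carrier, stood at 7.72 with bFGF and 5.98 without, 3.35-fold, also from under the floor. Its second probe set gave 7.13 and 5.31, a difference of 1.82 beside the 1.75 of the first. In both genes the level with bFGF remained below that of osteoblasts, at 9.22 for Slc7a8 and 8.87 for Slc38a1.

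Slc6a6 and Slc38a6 were higher with bFGF by 0.93 and 0.91, short of 2-fold. Slc38a6, an orphan member of the glutamine carrier family, stood at 7.51 with bFGF and 6.60 without, with 7.45 in osteoblasts and 7.32 in ES cells. Slc6a12 was above its floor with bFGF and under it without, at 6.67 and 6.05, while Slc7a7 stayed under the floor in both, at 5.42 and 4.78. In the same comparison bFGF-grown MSC were 2-fold or more higher in 14 of the 18 macrophage markers and lower in 0, with a median difference of 2.74 and a range of -0.39 to 3.58. Mrc1, Cd163 and Aif1 passed the floor in neither MSC array. Whether the macrophage transcripts have a part in the levels of Slc7a8, Slc38a1, Slc6a6 or Slc38a6 was not tested.

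**Figure D3:**
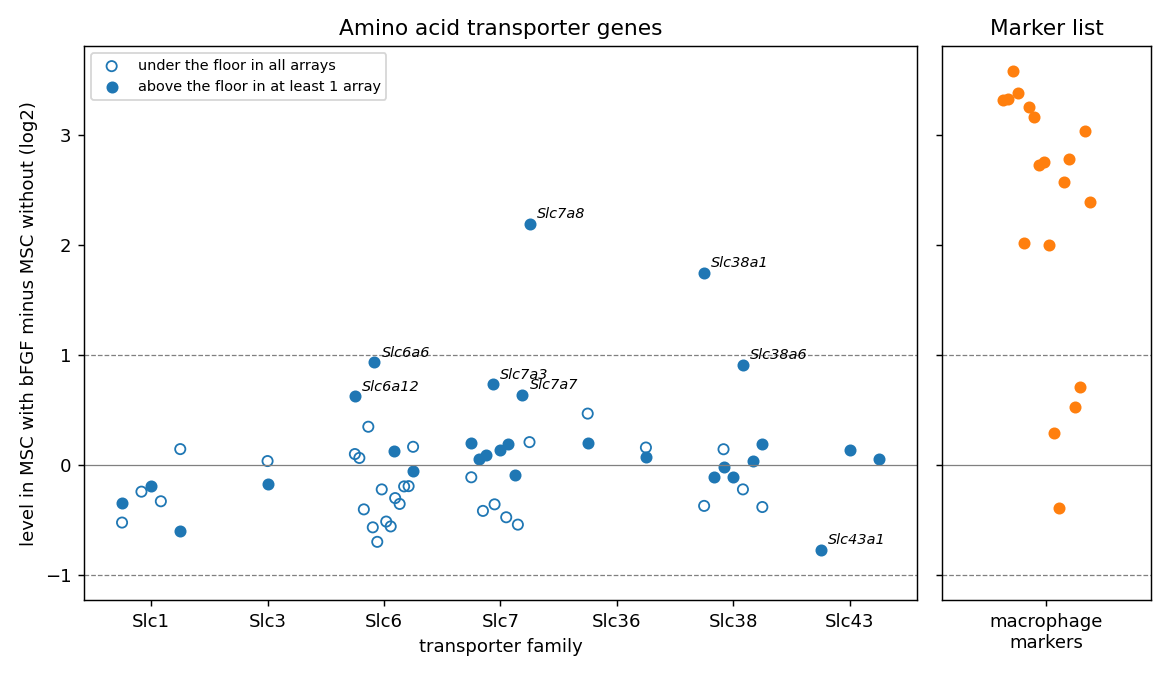
Difference between MSC with bFGF and MSC without (y axis, log2) for each of the 60 transporter genes by family (left; filled, above the floor in at least 1 array; open, under it in all) and for 18 macrophage markers (right); dashed lines mark 2-fold. Slc7a8 at 2.19 and Slc38a1 at 1.75 are the transporter genes above the upper line, and 14 of the markers that pass the floor lie above it.

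The 4 carriers high in MSC did not follow bFGF. With minus without, Slc7a11 differed by 0.05, Slc7a1 by 0.20, Slc6a9 by -0.06 and Slc1a5 by -0.19. The heavy chain Slc3a2 differed by -0.17 and the light chain Slc7a5 by 0.19. Other carriers that lay close together in the MSC arrays were Slc38a2 at -0.01, Slc38a7 at 0.04 and Slc36a4 at 0.07, as differences.

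A further set varied by less than 2-fold over all 4 arrays. It held 8 of the 29 members: Slc6a8, Slc7a2, Slc7a5, Slc7a6, Slc38a2, Slc38a6, Slc38a9 and Slc38a10. The same share over all genes was not computed, so the count cannot be read as a trait of these families. Slc38a9, the lysosomal arginine sensor that signals to mTORC1, had the narrowest range, 0.19, at 6.90, 6.71, 6.84 and 6.82 in MSC with bFGF, MSC without, osteoblasts and ES cells. Its second probe set lay lower, at 6.37, 5.91, 6.37 and 6.77, and put the level without bFGF 0.46 below that with bFGF. Slc38a10, a member with glutamate and glutamine among its proposed substrates, was at 8.66, 8.77, 9.20 and 8.37.

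No level above the floor was seen for 31 members, with values between 2.38 and 6.32. Among them were the glutamate transporters of brain and retina Slc1a1, Slc1a2, Slc1a3 and Slc1a7, and the kidney and gut pair Slc3a1 and Slc7a9, which together carry cystine and basic amino acids. In the SLC6 family they were the monoamine transporters Slc6a2, Slc6a3 and Slc6a4, the neuronal glycine and proline transporters Slc6a5 and Slc6a7, the GABA carriers Slc6a11 and Slc6a13, and Slc6a14 to Slc6a19 and Slc6a21 as far as measured. The others were Slc7a10, Slc7a12, Slc7a13, Slc7a14, Slc7a15, Slc36a2, Slc36a3, Slc38a3, Slc38a5, Slc38a8 and Slc38a11. Between MSC with and without bFGF they differed by -0.70 to 0.47, and 0 of them by 2-fold. Slc6a15, a neutral amino acid carrier, was at 4.01, 3.66 and 3.60 in MSC with bFGF, MSC without and osteoblasts against 5.90 in ES cells, all under the floor.

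**Figure D4:**
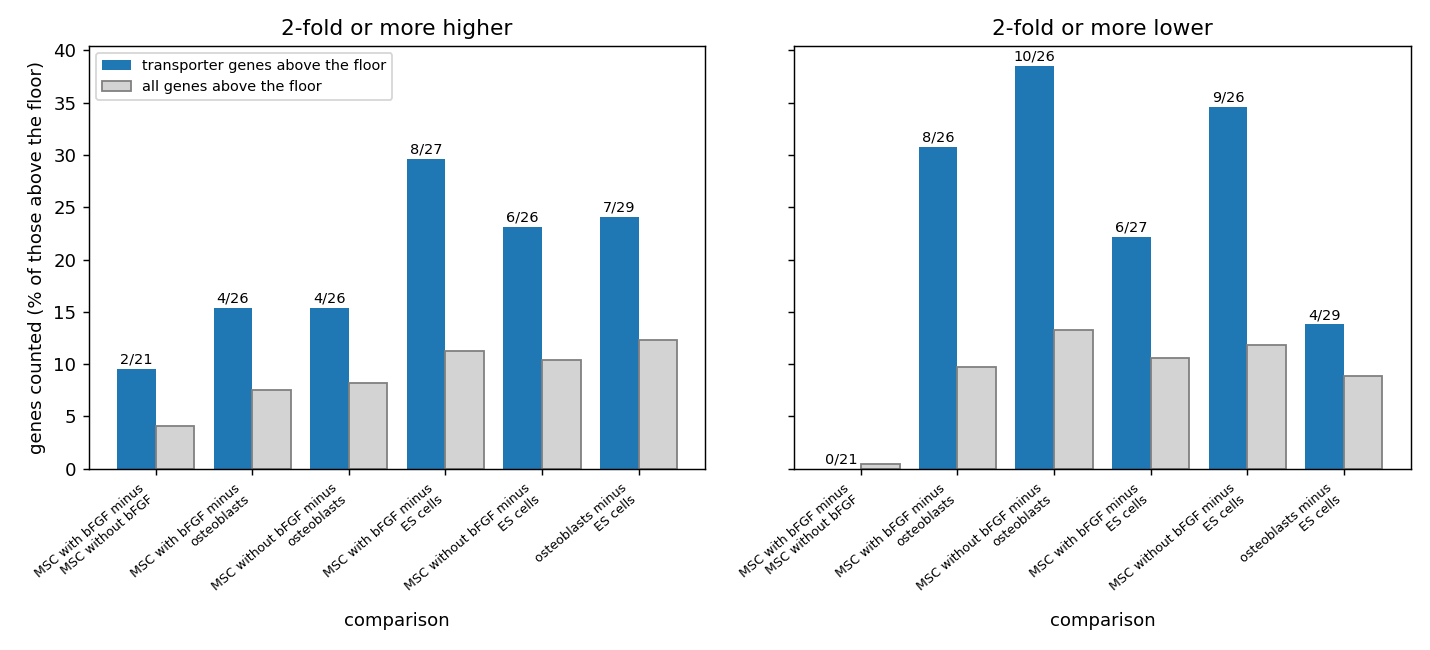
Share (y axis, %) of transporter genes above the floor (blue, with counts) and of all genes above the floor (grey) that were 2-fold or more higher (left) or lower (right) in each of 6 comparisons along the x axis; bars start at 0. In MSC with minus without bFGF 2 of 21 transporter genes were higher and 0 lower, and in MSC without bFGF minus osteoblasts 4 of 26 were higher and 10 lower.

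Other genes of amino acid metabolism are given from lists fixed by name. Enzymes of amino acid synthesis and breakdown were 2-fold or more higher in MSC with bFGF than in osteoblasts in 6 of 24 genes above the floor, where 7.5% of all genes were, and lower in 1, where 9.71% were. Without bFGF 6 of 25 were higher, against 8.17% of all genes, and 2 were lower, against 13.3%. Shmt2, which makes glycine and one-carbon units in mitochondria, was higher by 2.30 and 2.07 with and without bFGF, and the serine synthesis enzyme Psat1 by 1.48 in both. The cysteine-making enzyme Cth was higher by 1.42 and 1.33. Glutamine synthetase (Glul) went the other way, by -1.11 and -1.71. The median of the enzymes above the floor was 0.68 with bFGF and 0.61 without.

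Against ES cells 8 of 25 enzymes were higher in MSC with bFGF and 2 lower, beside 11.3% and 10.6% of all genes, and 8 of 26 were higher without bFGF and 3 lower, beside 10.4% and 11.8%. The proline synthesis enzyme Aldh18a1 was higher by 2.21 and 2.15 and the alanine transaminase Gpt2 by 2.15 and 2.16, and Glul differed by -2.03 and -2.63. Asparagine synthetase (Asns), chosen after its values were seen, differed little, at 10.89, 10.79, 11.04 and 10.49 in MSC with bFGF, MSC without, osteoblasts and ES cells. Between the MSC arrays 0 of 25 enzymes passed 2-fold in either direction, beside 4.09% of all genes higher with bFGF and 0.467% lower.

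Of 19 genes of the integrated stress response, the pathway through which ATF4 acts, 10 in MSC with bFGF and 8 in MSC without were 2-fold or more above their level in osteoblasts, beside 7.5% and 8.17% of all genes. The kinase gene Eif2ak2 was lower in both, by -1.14 and -1.29 as differences. Against ES cells 14 were higher with bFGF and 13 without, beside 11.3% and 10.4% of all genes. In both 0 were lower, beside 10.6% and 11.8%. Osteoblasts were also higher than ES cells in 9 of the 19 and lower in 0, beside 12.3% and 8.83% of all genes. The medians of the list were 1.00 and 0.75 for MSC with and without bFGF minus osteoblasts, 1.54 and 1.68 for MSC minus ES cells, and 0.87 for osteoblasts minus ES cells. Atf4 itself stood at 10.22 and 10.31 in MSC grown with and without bFGF, against 9.22 in osteoblasts and 8.68 in ES cells. The leucine sensor and stress gene Sesn2 was higher than in osteoblasts by 2.12 and 2.00. With minus without bFGF 0 of 19 passed 2-fold, beside 4.09% of all genes higher and 0.467% lower.

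Among the tRNA-charging synthetases of the cytosol 3 of 18 were higher than in osteoblasts in each MSC array, beside 7.5% of all genes with bFGF and 8.17% without. Against ES cells 4 and 5 were higher with and without bFGF, beside 11.3% and 10.4%. Lower than in osteoblasts were 0, beside 9.71% and 13.3% of all genes with and without bFGF. Lower than in ES cells were also 0, beside 10.6% and 11.8%. The synthetase medians lay between 0.66 and 0.76. The tryptophan enzyme Wars was higher than in osteoblasts by 1.25 and 1.28. Of 30 genes of amino acid sensing upstream of mTORC1, 1 was higher and 3 lower than in osteoblasts with bFGF, beside 7.5% and 9.71% of all genes. Without bFGF 1 was higher and 2 lower, beside 8.17% and 13.3%. Against ES cells 5 of 32 were higher and 3 lower in each MSC array, beside 11.3% and 10.6% of all genes with bFGF and 10.4% and 11.8% without. The arginine sensor Castor1 differed from osteoblasts by -3.16 and -2.81, and stood at 5.87 and 6.22 in MSC, under the floor, against 9.03 in osteoblasts and 8.75 in ES cells.

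Of 12 carriers of amino acids and peptides outside the 7 families 2 were higher with bFGF, beside 4.09% of all genes, and 0 lower, beside 0.467%. The lysosomal peptide and histidine carrier Slc15a3, which is known from macrophages, had a level of 10.15 with bFGF and 7.27 without it, compared with 10.19 in osteoblasts and 7.64 in ES cells. The mitochondrial aspartate and glutamate carrier Slc25a13 was at 8.07 and 5.46 with and without bFGF, against 7.90 and 9.31, while its relative Slc25a12 was at 8.64 and 9.02 against 8.81 and 7.32. The aromatic amino acid carrier Slc16a10 differed from osteoblasts by -1.50 and -2.03 in MSC grown with and without bFGF.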

How the data were processed

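RNA of 4 cultures was measured on 1 array each. Per the submitters' processing notes the authors made the deposited values with Affymetrix Expression Console and RMA, which corrects background, makes the distributions of arrays alike and summarises probes; the log2 scale of the deposited values was inferred from their range, 1.40 to 14.28. No version or genome build is given in the sources used here. Of 35556 probe sets 21789 had a single symbol in the platform annotation. Differences were taken between arrays as deposited, a gene was counted at 2-fold above the floor, and no test was possible with 1 array per group; the number of arrays limits the precision. Counts are read beside the share of all genes counted. The alternatives averaged a gene's probe sets, dropped the floor, centred differences on their median, or removed a loess curve (span 0.3). The members and lists were chosen with earlier results of these data known. Every member could be named. Of each list up to 4 genes each way with the largest difference of 2-fold or more were eligible, plus Atf4. Asns is named outside this rule. Marker lists were given as counts with members under the floor. Levels of osteoblast markers above the floor, and highest levels of lists in ES cells, were added after their values were seen. The counting was tested on simulated data with known shifts put into genes well above the floor. That checks the code alone and does not cover genes that rise from under the floor. Python 3.11.15, numpy 2.4.6, pandas 2.3.3 and statsmodels 0.14.6 were used.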

Additional observations from a re-analysis of the deposited data

How the results depend on the processing

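Of the 12 counts of members at 2-fold, 11 stayed within 1.5 times their value under all 4 alternatives. The exception was the count of members higher in MSC with bFGF than in ES cells, 8 as given. It was 5 with differences centred on the median and 5 with a loess curve removed, and these 5 were all among the 8, without Slc3a2, Slc36a1 and Slc38a7. Under the 4 alternatives each difference of a member counted at 2-fold moved by less than 0.29. That is the SD between probe sets of the same gene for MSC with minus without bFGF. Dropping the floor cannot move a difference, and averaging probe sets can move only those of Slc38a1 among the counted members. That SD comes from 999 genes with several probe sets and measures neither variation between cultures nor between RNA preparations. Levels under the floor limit what can be said of 31 of the 60 members in all arrays and of another 12 in some arrays. Those 12 include Slc7a8 and Slc38a1, the members counted as higher with bFGF. RMA would hide a change common to all genes.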
